A study of Mus musculus with 35 samples.

Results

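The immediate early response genes described here are Fos, Fosb, Jun, Junb, Jund, Egr1, Atf3, Ier2, Dusp1 and Gem, followed across sorted mouse mammary cells of parous and nulliparous mice. They were chosen by name as a functional group, with earlier results of these data known. Shares of the 10 set beside those of all genes are therefore descriptions. All 10 were found among the 19937 genes with a probe set of their own, each with 1 probe set.

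Immediate early genes are transcribed within minutes of a growth factor, hormone, mechanical or stress signal, without new protein synthesis, and their short-lived transcripts then decline. The Fos and Jun proteins pair through leucine zippers into the transcription factor AP-1. Egr1 and Atf3 are transcription factors of other families, Dusp1 removes phosphate from the MAP kinases that switch the group on, and Gem is a small GTP-binding protein that restrains voltage-gated calcium channels. In the mammary gland AP-1 and MAP kinase signalling act during ductal growth, lactation and involution, and the same genes are also known to be induced in many tissues by enzymatic digestion and cell sorting.

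Expression was measured on 1-colour Affymetrix arrays in 35 samples, 1 array per sample, in 12 groups made of 6 subpopulations and 2 reproductive histories. Parous mice were mated at 42 days of age and passed through pregnancy, 21 days of lactation and 40 days of involution, in which the gland regresses after weaning. Nulliparous mice were virgins of the same age. Each sample was a pool of the 4th mammary glands of 5 mice, digested to single cells and sorted by flow cytometry. The gates were luminal cells negative or positive for Sca1 (the Ly6a protein), basal cells low or high for CD49f (an integrin subunit), total epithelial cells and stromal cells. Every group held 3 samples but 1: parous basal CD49f-high cells had 2, because the submitters left out an array that hybridized poorly. RNA came from 2000 cells for basal CD49f-high samples and from 10000 for all others, so that the CD49f gate and the cell number cannot be told apart. Every sample had been digested and sorted, and no undigested gland was measured, so the level in the gland and the level reached during handling cannot be told apart. In pooled cells, fewer cells of a type and less RNA per cell cannot be told apart either. The number of arrays limits the precision.

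Values are log2 expression of a probe set, on which 1 unit is a doubling. A parity effect is the parous mean minus the nulliparous mean. A gene was called when its limma adjusted p, taken over all 19937 genes, was under 0.05, and every error given with a difference is the standard error (SE) of that fit. The fit takes 1 spread per gene for all 12 groups. An SE and adjusted p can therefore be too small in a subpopulation of larger spread, such as basal CD49f-high cells. Basal markers averaged 9.77 to 10.58 in the 11 basal samples, against 6.09 to 7.33 in the 12 luminal samples. Fibroblast markers averaged 10.36 to 10.78 in the 6 stromal samples, against 7.09 to 8.03 in the 6 total epithelial samples. Pan-luminal markers averaged 10.29 to 10.61 in the luminal samples. In stromal cells they were uneven between replicates, at 6.69 to 8.03 in parous and 6.78 to 8.71 in nulliparous samples.

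Promoter sequence, from 250 bases before to 50 bases after the gene start, was given by RefSeq (GRCm38.p6) for Fos, Fosb, Jun, Junb, Jund, Atf3 and Dusp1. The letters TGACG, the shorter form of the cAMP response element bound by CREB and ATF proteins, occurred on either strand in 5 of these 7 promoters and in 20.8% of the 32851 promoters searched. The full element TGACGTCA, which contains TGACG on both strands, occurred in Dusp1 alone of the 7, and in 1.79% of all promoters. The AP-1 site TGANTCA occurred in none of the 7 and in 7.81% of all promoters, and the CArG box of serum response factor in none of the 7 and in 1.63% of all. A match of letters is a description and not a shown binding site. An absence holds only for these exact letters within this window, and sites further away or of other letters were not searched. The stretches holding TGACG are printed because these genes were higher together in parous epithelium, as described next. Jun and Jund, without the letters, were higher too. Each line runs 5′ to 3′ on the gene's strand, with TGACG or its complement CGTCA in capitals. Fos is the plus strand of chr12:85473741-85473848 and Fosb is the minus strand of chr7:19310081-19310125. Junb is the minus strand of chr8:84978830-84978874, Atf3 the minus strand of chr1:191183334-191183360 and Dusp1 the minus strand of chr17:26508588-26508683.
Fos: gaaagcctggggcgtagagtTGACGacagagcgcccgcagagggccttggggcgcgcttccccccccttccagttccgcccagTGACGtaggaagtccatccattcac
Fosb: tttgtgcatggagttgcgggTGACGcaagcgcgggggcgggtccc
Junb: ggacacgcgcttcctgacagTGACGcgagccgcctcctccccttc
Atf3: ggaagctattaatagcattaCGTCAgc
Dusp1: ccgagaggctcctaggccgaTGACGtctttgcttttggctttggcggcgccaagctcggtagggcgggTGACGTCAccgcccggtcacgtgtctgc

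Averaged over the 4 sorted epithelial subpopulations, all 10 genes were higher in parous than in nulliparous mice. The mean effects ran from 0.19 to 0.74 with a median of 0.46, whereas the median over all genes was -0.00, and 2.72% of all genes were called higher. Of the 40 pairs of a gene and a sorted epithelial subpopulation, 38 had a positive difference, against 48.8% of the 79748 such pairs over all genes. Parous samples lay all above the nulliparous samples in 23 pairs, against 9.04% of all pairs, and 0 pairs had them all below. Of the 40 pairs 10 were called higher, against 1.35% of all pairs. Stromal cells did not share this direction: 9 of the 10 differences were negative there. In the plot of every sample, the parous mean stands furthest above the nulliparous mean in basal CD49f-high cells for all but Atf3 and Gem. Atf3 differed by 0.57 both there and in luminal Sca1-negative cells, and Gem differed most in luminal Sca1-negative cells, by 0.80.

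**Figure D1:**
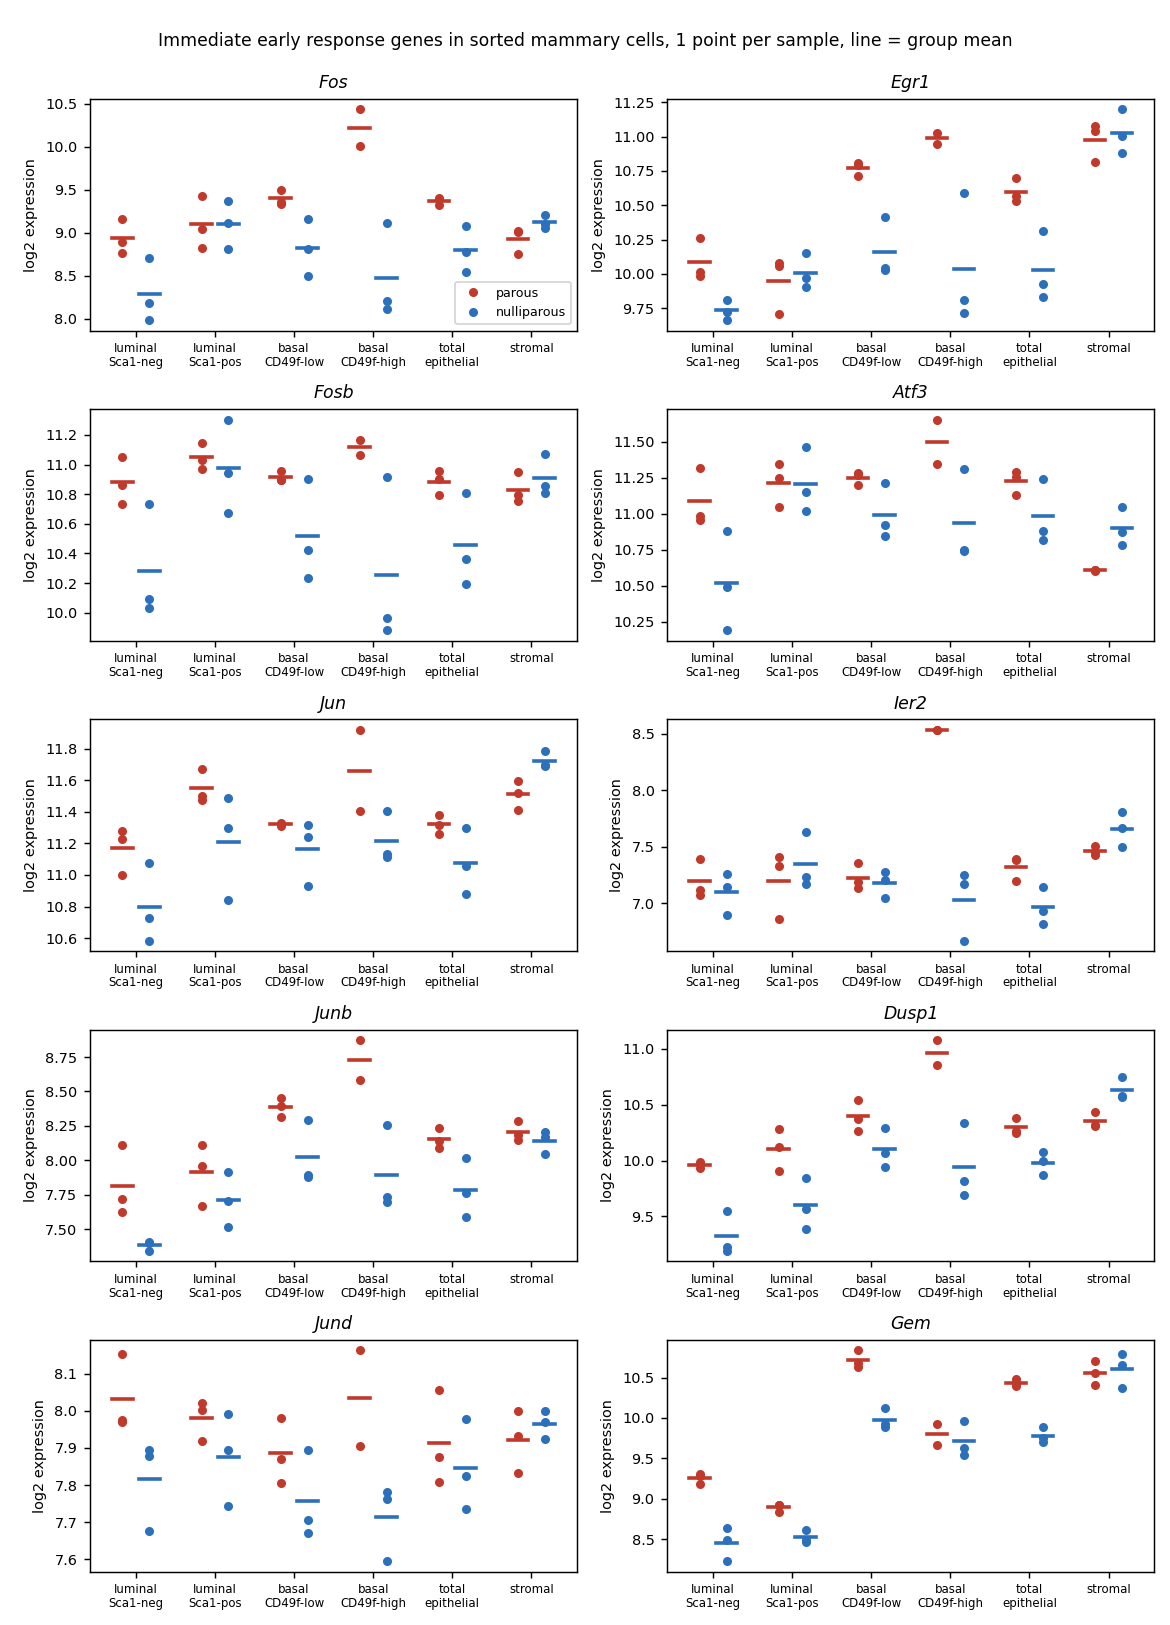
Log2 expression of each of the 10 genes (y axis, own scale per panel) in the 6 subpopulations (x axis), 1 point per sample, parous left in red and nulliparous right in blue, with a line at the group mean. In basal CD49f-high cells Fos was at 10.43 and 10.01 in parous samples, against 9.11, 8.21 and 8.11 in nulliparous samples, while in stromal cells the points of both histories lie close together.

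The subpopulations differed in how many of the genes were called. In basal CD49f-high cells 7 of 10 were called higher, against 4.01% of all genes, with a median effect of 0.85. There 9 of 10 had no overlap between histories, against 15.9% of all genes higher without overlap. Of the luminal gates, Sca1-negative cells had 2 called, Dusp1 and Gem, against 0.662% of all genes, and 8 of 10 did not overlap, against 7.31% of all genes. Their median effect was 0.50. In basal CD49f-low cells only Gem was called, against 0.286% of all genes, 4 of 10 did not overlap, against 6.77%, and the median was 0.33. In luminal Sca1-positive cells none was called at an adjusted p under 0.05 by limma, against 0.426% of all genes higher, and 3 had an unadjusted p under 0.05. There 2 of 10, Dusp1 and Gem, did not overlap, against 6.19%, and the median was 0.09. Total epithelial cells, which hold luminal and basal cells together, had 1 call, Gem, against 0.166% of all genes, and 6 of 10 without overlap, against 7.24%.

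**Figure D2:**
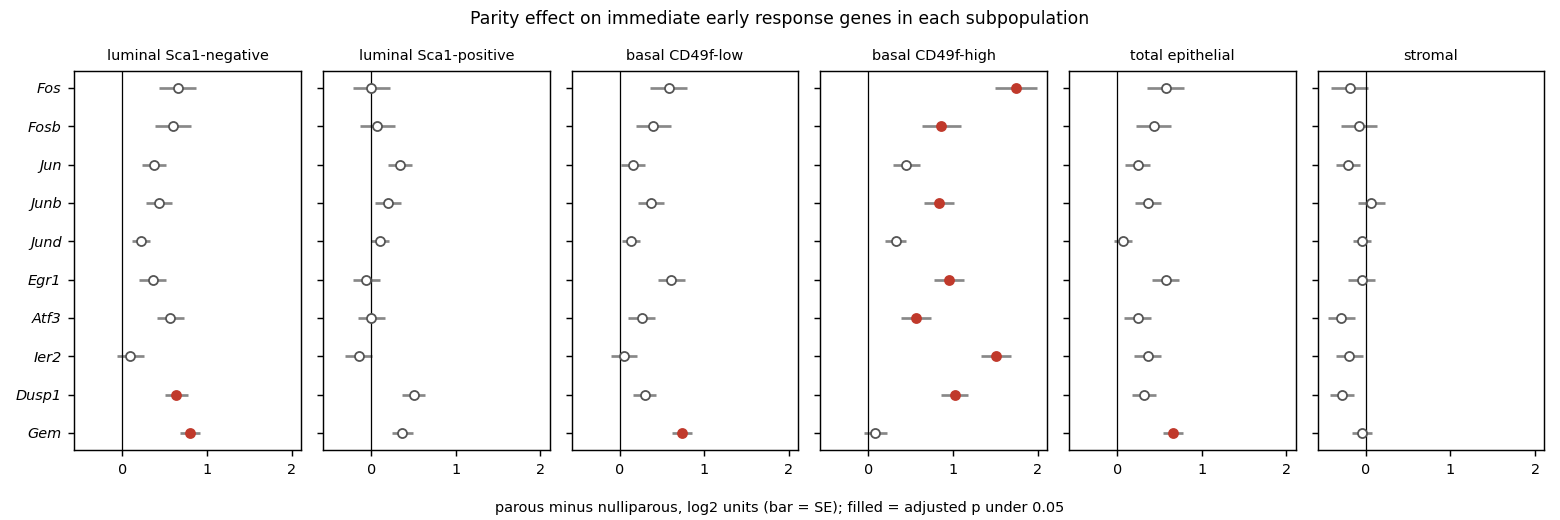
Parity effect (x axis, parous minus nulliparous, log2 units) of each gene (y axis) in each subpopulation, with bars of 1 SE from limma and filled points where the adjusted p was under 0.05. Filled points number 7 in basal CD49f-high cells, 2 in luminal Sca1-negative cells and 1 each in basal CD49f-low and total epithelial cells, with none in luminal Sca1-positive and stromal cells.

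Fos, the founding member of the AP-1 family, had the largest parity effect of the group. In basal CD49f-high cells it measured 10.43 and 10.01 in parous samples, against 9.11, 8.21 and 8.11 in nulliparous samples. Both parous samples lay above all nulliparous ones, and nulliparous replicate 1 stood nearest to them. The effect was 1.74 (SE 0.24, limma adjusted p = 3.3e-05), a 3.35-fold difference. Among luminal Sca1-negative cells Fos measured 9.16, 8.90 and 8.77 in parous samples, against 8.71, 7.99 and 8.19 in nulliparous samples. In basal CD49f-low cells it measured 9.34, 9.50 and 9.35 in parous samples, against 9.16, 8.81 and 8.50 in nulliparous samples. Neither pair of groups overlapped, yet the effects of 0.65 (SE 0.22, limma adjusted p = 0.180) and 0.58 (SE 0.22, limma adjusted p = 0.295) were not called. In luminal Sca1-positive cells the groups overlapped throughout, at 9.43, 9.05 and 8.83 in parous samples and 9.37, 9.12 and 8.81 in nulliparous samples, an effect of 0.00 (SE 0.22). In stromal cells Fos measured 9.01, 9.03 and 8.76 in parous samples, just below the 9.10, 9.05 and 9.21 of nulliparous samples, an effect of -0.19 (SE 0.22, limma adjusted p = 0.862).

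Fosb, the Fos relative that pairs with Jun proteins in the same way, followed Fos with smaller effects. Its basal CD49f-high values were 11.16 and 11.07 in parous samples, against 10.92, 9.96 and 9.88 in nulliparous samples, an effect of 0.86 (SE 0.23, limma adjusted p = 0.0183). This call was lost in 9 of 49 other settings, among them leaving out either parous sample or nulliparous replicate 2 or 3 of that subpopulation, with limma adjusted p up to 0.406. Nulliparous replicate 1 was again close to the parous samples, and the other two lay well below. Luminal Sca1-negative cells followed: Fosb measured 11.05, 10.73 and 10.86 in parous samples, against 10.73, 10.03 and 10.09 in nulliparous samples, with an effect of 0.60 (SE 0.21, limma adjusted p = 0.211). Its effects were 0.40 in basal CD49f-low, 0.43 in total epithelial, 0.07 in luminal Sca1-positive and -0.08 in stromal cells, all with overlapping groups and none called. Fos and Fosb were also the most variable of the 10 between samples of a group. Their pooled standard deviations (SD) within groups, 0.282 and 0.276, lay at percentiles 83.4 and 82.1 of all genes.

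Jun, which can pair with itself as well as with Fos proteins, was called in no single subpopulation. Basal CD49f-high cells gave 11.92 and 11.40 in parous samples, against 11.40, 11.11 and 11.13 in nulliparous samples, with an effect of 0.44 (SE 0.16, limma adjusted p = 0.0843). The lower parous sample and the highest nulliparous sample were almost level. Its effects were 0.37 in luminal Sca1-negative, 0.34 in luminal Sca1-positive, 0.16 in basal CD49f-low and 0.24 in total epithelial cells, with overlap in all 4. In stromal cells Jun measured 11.52, 11.60 and 11.41 in parous samples, all below the 11.69, 11.70 and 11.79 of nulliparous samples, an effect of -0.21 (SE 0.14, limma adjusted p = 0.714). The mean effect over the 4 sorted epithelial subpopulations was 0.33 (SE 0.07, limma adjusted p = 0.00533).

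Junb, a Jun protein that often restrains Jun-driven transcription, was called in basal CD49f-high cells. It measured 8.58 and 8.87 in parous samples, against 8.26, 7.69 and 7.73 in nulliparous samples, an effect of 0.83 (SE 0.17, limma adjusted p = 0.00244). In luminal Sca1-negative cells it measured 8.11, 7.72 and 7.62 in parous samples, against 7.40, 7.34 and 7.41 in nulliparous samples, with an effect of 0.43 (SE 0.16, limma adjusted p = 0.228). The nulliparous samples there were nearly identical and parous replicate 1 stood above the others. Effects of 0.37 in both basal CD49f-low and total epithelial cells, without overlap, and of 0.20 in luminal Sca1-positive cells, with overlap, were not called. Junb was the only one of the 10 with a positive difference in stromal cells, 0.07 (SE 0.16). Jund is the family member that is least inducible and present in resting cells. Its parity effects were 0.32 in CD49f-high and 0.13 in CD49f-low basal cells, and 0.22 in Sca1-negative and 0.10 in Sca1-positive luminal cells, and none was called. Its effects of 0.07 in total epithelial and -0.04 in stromal cells, with overlap, were not called either. Basal CD49f-high values were 8.16 and 7.90 in parous samples, against 7.76, 7.78 and 7.60 in nulliparous samples, a narrow gap without overlap. Its mean effect of 0.19 (SE 0.06, limma adjusted p = 0.0340) was the smallest of the 10, and its call was lost in 16 of 48 other settings. Jund also had the smallest spread within groups, an SD of 0.108 at percentile 5.86 of all genes.

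Egr1, a zinc finger factor induced through the MAP kinase and serum response factor route, was higher in parous basal cells. It measured 11.03 and 10.95 in parous CD49f-high samples, against 10.59, 9.81 and 9.72 in nulliparous ones, an effect of 0.95 (SE 0.18, limma adjusted p = 0.000938). In basal CD49f-low cells it measured 10.71, 10.81 and 10.79 in parous samples, against 10.41, 10.03 and 10.04 in nulliparous samples, an effect of 0.61 (SE 0.16, limma adjusted p = 0.0604) that just missed the threshold. Parous samples lay close to one another in both gates, and nulliparous replicate 1 was the nearest to them. Total epithelial cells showed a similar gap, 10.57, 10.53 and 10.70 in parous samples against 10.31, 9.93 and 9.83 in nulliparous samples, an effect of 0.57 (SE 0.16, limma adjusted p = 0.144). Egr1 differed by 0.36 in luminal Sca1-negative cells without overlap, by -0.06 in luminal Sca1-positive cells and by -0.05 in stromal cells, none of them called. Stromal cells were high in both histories, at 10.82, 11.08 and 11.04 in parous and 11.00, 10.88 and 11.20 in nulliparous samples, so that parous basal CD49f-high cells reached the stromal range.

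Atf3, a stress-induced partner of AP-1 proteins, was called in basal CD49f-high cells, where it measured 11.65 and 11.34 in parous samples, against 11.31, 10.74 and 10.75 in nulliparous samples. The effect was 0.57 (SE 0.18, limma adjusted p = 0.0405), and the lower parous and the highest nulliparous sample nearly met. This call was lost in 10 of 49 other settings, among them leaving out parous replicate 2 or nulliparous replicate 2 or 3 of that subpopulation, with limma adjusted p up to 0.410. In luminal Sca1-negative cells it measured 11.32, 10.96 and 10.99 in parous samples, against 10.88, 10.19 and 10.49 in nulliparous samples, an effect of 0.57 (SE 0.16, limma adjusted p = 0.0838). Effects in basal CD49f-low and total epithelial cells were 0.26 and 0.24 with overlap, and that in luminal Sca1-positive cells was 0.00. Atf3 had the most negative stromal difference of the 10. It measured 10.61, 10.61 and 10.60 in parous stromal samples, below the 10.87, 10.78 and 11.04 of nulliparous samples, at -0.29 (SE 0.16, limma adjusted p = 0.613).

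Ier2, an early-induced nuclear protein, differed in basal CD49f-high cells and hardly elsewhere in the sorted epithelium. It measured 8.54 in each of the 2 parous CD49f-high samples, against 7.25, 7.17 and 6.67 in nulliparous samples. These parous samples were the highest of all 35. Their deposited values are identical to the last digit, a tie found for 23 genes between these arrays and for 11 to 43 genes between any 2 arrays of one group, so the equality is not a measure of their spread. The effect was 1.50 (SE 0.18, limma adjusted p = 2.9e-06), a 2.84-fold difference. In basal CD49f-low cells Ier2 measured 7.13, 7.36 and 7.19 in parous samples and 7.27, 7.21 and 7.04 in nulliparous samples, fully interleaved, an effect of 0.05 (SE 0.16). The parity effect in CD49f-high minus that in CD49f-low cells was 1.45 (SE 0.24, limma adjusted p = 0.00105), one of 2 calls among the 10 in this comparison, against 0.988% of all genes called higher. Luminal Sca1-negative and Sca1-positive cells had effects of 0.09 and -0.15. Total epithelial cells measured 7.39, 7.19 and 7.39 in parous samples, above the 6.93, 6.82 and 7.14 of nulliparous samples, an effect of 0.36 (SE 0.16, limma adjusted p = 0.604). Stromal cells, at 7.45, 7.51 and 7.42 in parous and 7.50, 7.67 and 7.81 in nulliparous samples, differed by -0.20.

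Dusp1, the phosphatase that closes the MAP kinase loop, was called in 2 subpopulations. In luminal Sca1-negative cells it measured 9.99, 9.96 and 9.93 in parous samples, against 9.23, 9.19 and 9.55 in nulliparous samples. The parous samples were almost equal and all lay above the nulliparous ones, an effect of 0.64 (SE 0.14, limma adjusted p = 0.0148), or 1.56-fold. This call was lost in 9 of 49 other settings, among them leaving out replicate 1 or 2 of either history in that subpopulation, with limma adjusted p up to 0.114. In basal CD49f-high cells it measured 10.85 and 11.08 in parous samples, against 10.33, 9.82 and 9.69 in nulliparous samples, an effect of 1.02 (SE 0.15, limma adjusted p = 9.1e-05), or 2.02-fold. In luminal Sca1-positive cells it measured 10.28, 10.12 and 9.91 in parous samples, against 9.84, 9.57 and 9.39 in nulliparous samples, an effect of 0.50 (SE 0.14, limma adjusted p = 0.117) without overlap. This was the largest effect of the 10 genes in that subpopulation. Basal CD49f-low cells overlapped, with an effect of 0.30 (SE 0.14, limma adjusted p = 0.451). Total epithelial samples, 10.38, 10.26 and 10.25 in parous and 10.08, 9.99 and 9.87 in nulliparous mice, did not overlap, at 0.32 (SE 0.14, limma adjusted p = 0.593). In stromal cells Dusp1 measured 10.30, 10.43 and 10.32 in parous samples, all below the 10.58, 10.57 and 10.75 of nulliparous samples, at -0.28 (SE 0.14, limma adjusted p = 0.545).

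Gem had another pattern. It was called in luminal Sca1-negative, basal CD49f-low and total epithelial cells and did not differ in basal CD49f-high cells beyond the spread. In luminal Sca1-negative cells it measured 9.18, 9.28 and 9.30 in parous samples, against 8.50, 8.23 and 8.64 in nulliparous samples, an effect of 0.80 (SE 0.12, limma adjusted p = 0.000249), or 1.74-fold. In basal CD49f-low cells it measured 10.63, 10.68 and 10.84 in parous samples, against 9.89, 9.93 and 10.12 in nulliparous samples, an effect of 0.73 (SE 0.12, limma adjusted p = 0.000765). Parous samples lay clear of the nulliparous ones in both. Total epithelial cells gave 10.48, 10.43 and 10.39 in parous samples, against 9.89, 9.70 and 9.75 in nulliparous samples, an effect of 0.66 (SE 0.12, limma adjusted p = 0.00513). Basal CD49f-high cells gave 9.92 and 9.67 in parous samples and 9.97, 9.63 and 9.55 in nulliparous samples, interleaved, an effect of 0.08 (SE 0.13, limma adjusted p = 0.793). The difference between the effects in CD49f-high and CD49f-low cells was -0.65 (SE 0.18, limma adjusted p = 0.0490), against 1.28% of all genes called lower, and this call was lost in 32 of 49 other settings. In luminal Sca1-positive cells Gem measured 8.92, 8.92 and 8.84 in parous samples, against 8.49, 8.47 and 8.62 in nulliparous samples, an effect of 0.37 (SE 0.12, limma adjusted p = 0.305). The stromal groups were interleaved, at 10.71, 10.41 and 10.56 in parous and 10.66, 10.37 and 10.79 in nulliparous samples, a difference of -0.05.

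Whether the parity effect differed between subpopulations was tested directly. An F test over all 6 called 5 of the 10 genes, Fos, Egr1, Ier2, Dusp1 and Gem, against 2.8% of all genes. The smallest adjusted p was that of Ier2 (F = 13.6, limma adjusted p = 0.000331). Luminal Sca1-positive minus luminal Sca1-negative effects were negative for all 10, with a median of -0.33, but none was called at an adjusted p under 0.05 by limma, against 0.0953% of all genes in either direction, and 3 had an unadjusted p under 0.05. Between luminal Sca1-negative and basal CD49f-low cells none differed, against 0.301% of all genes, and 0 had an unadjusted p under 0.05. CD49f-high minus CD49f-low effects for Fos, 1.17 (SE 0.33, limma adjusted p = 0.0547), and Dusp1, 0.72 (SE 0.21, limma adjusted p = 0.0588), came near the threshold.

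Stromal cells were compared with the sorted epithelium in the same way, a comparison added after the other values were seen. The stromal parity effect minus the mean of the 4 sorted epithelial effects was negative for all 10 genes, with a median of -0.55, while the median over all genes was 0.04. Only Dusp1 was called, at -0.89 (SE 0.16, limma adjusted p = 0.00327), against 0.421% of all genes called lower. Gem followed at -0.54 (SE 0.13, limma adjusted p = 0.0619) and Fos at -0.93 (SE 0.25, limma adjusted p = 0.0866). Within stromal cells alone the median effect was -0.14, and none of the 10 was called by limma, against 0.492% of all genes called lower. There 0 of 10 had an unadjusted p under 0.05, against 1827 of all 19937 genes in either direction. Parous samples lay below all nulliparous samples for 4 of 10, Fos, Jun, Atf3 and Dusp1, against 6.33% of all genes.

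The result over the epithelium leaned on basal CD49f-high cells, whose 2 parous samples were the fewest. Fitted on the samples of that subpopulation alone, none of the 10 was called, nor was any other gene, and the adjusted p of limma was 0.169 for Ier2 and 0.193 for Fos. The mean over the 3 other sorted epithelial subpopulations, added after the data were seen, called 3 of 10, against 1.46% of all genes called higher. These were Junb at 0.33 (limma adjusted p = 0.0398), Dusp1 at 0.48 (limma adjusted p = 0.000545) and Gem at 0.63 (limma adjusted p = 1.5e-06). Of the others, 6 had positive means of 0.15 to 0.41 that were not called, and Ier2 was at -0.00. The spread of the 10 genes within groups was an SD of 0.324 in basal CD49f-high cells, against 0.115 to 0.211 in the other subpopulations. Over all genes it was 0.322 there, against 0.204 to 0.233. The fit shares 1 spread per gene over all groups, so the SE and adjusted p of these cells can be too small. That bears on the 7 calls there and on every comparison that includes these cells.

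Samples of one replicate number often lay on the same side of their group means, although the labels do not state that a number marks one pool of mice across subpopulations. If it does, samples of a number are not independent, and the SE of a mean over subpopulations can be too small. Parous replicate 3 lay below its group mean over the 10 genes in all 6 subpopulations. Parous replicate 2 lay above it in 4 of 6, and parous replicate 1, which has no basal CD49f-high sample, in 4 of 5. Nulliparous replicate 1 lay above its group mean in 5 of 6, by 0.17 on average and by 0.37 in basal CD49f-high cells. Nulliparous replicate 2 lay below in all 6, and nulliparous replicate 3 in 5. Without nulliparous replicate 1 in every subpopulation, 6 of 10 were called in luminal Sca1-negative cells, 4 each in basal CD49f-low and total epithelial cells and 1 in luminal Sca1-positive cells. Without nulliparous replicate 3, 6 of 10 were called in the mean over the sorted epithelium. Calls over all genes moved between the settings run as well. They ranged from 81 to 614 in luminal Sca1-negative, 62 to 544 in basal CD49f-low and 25 to 231 in total epithelial cells. The part of the differences between replicate numbers in the parity effects was not tested otherwise.

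**Figure D3:**
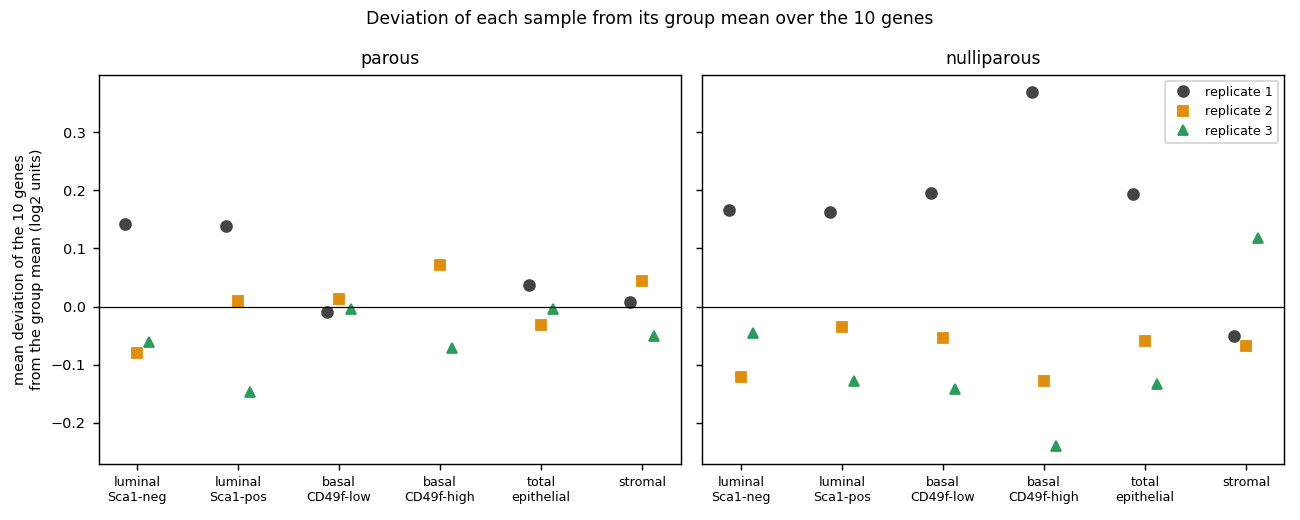
Mean deviation of the 10 genes from their group mean (y axis, log2 units) for each sample, by subpopulation (x axis) and replicate number (symbol), parous left and nulliparous right. Nulliparous replicate 1 lies above 0 in 5 of 6 subpopulations and reaches 0.37 in basal CD49f-high cells.

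The level of the genes, averaged over both histories, also differed between cell types. An F test over the 6 subpopulations called 8 of 10, all but Fosb and Jund, against 52.7% of all genes, so the share is not far from the background. Stromal cells were higher than total epithelial cells for 5, Jun by 0.42 (SE 0.10), Egr1 by 0.69 (SE 0.11), Ier2 by 0.42 (SE 0.11), Dusp1 by 0.35 (SE 0.10) and Gem by 0.48 (SE 0.08), against 13.6% of all genes called higher. Atf3 was lower, at -0.35 (SE 0.11, limma adjusted p = 0.0172), a call lost in 4 of 49 other settings, against 15.6% of all genes called lower. Basal cells were higher than luminal cells for 6, Fos by 0.37, Junb by 0.55, Egr1 by 0.55, Ier2 by 0.28, Dusp1 by 0.60 and Gem by 1.27, against 15.5% of all genes. For Fos and Ier2 the basal and luminal means of nulliparous mice were interleaved. Nulliparous Fos means were 8.82 in CD49f-low and 8.48 in CD49f-high cells, against 8.29 in Sca1-negative and 9.10 in Sca1-positive cells. Those of Ier2 were 7.18 and 7.03, against 7.10 and 7.35, in the same order. Gem alone of the 10 had no overlap between the 11 basal and 12 luminal samples, against 2.52% of all genes higher without overlap. Luminal Sca1-positive cells were higher than Sca1-negative cells for the AP-1 genes Fos by 0.48, Fosb by 0.43 and Jun by 0.40 and for Atf3 by 0.41, against 9% of all genes. That call was lost in 27 of 49 other settings for Fosb and in 11 for Fos. For Fos, Fosb and Atf3 the gap lay mostly in nulliparous mice, at means of 9.10 against 8.29, 10.97 against 10.28 and 11.21 against 10.52. In parous mice these were 9.10 against 8.94, 11.05 against 10.88 and 11.21 against 11.09. Jun differed in both histories, at 11.55 against 11.17 in parous and 11.21 against 10.80 in nulliparous mice. CD49f-high cells were higher than CD49f-low cells for Ier2 by 0.58 (SE 0.12), against 1.05% of all genes called higher, and lower for Gem at -0.59 (SE 0.09), against 2.48% called lower. The Ier2 difference was present in parous mice only, at means of 8.54 in CD49f-high and 7.23 in CD49f-low cells. In nulliparous mice these means were 7.03 and 7.18.

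The order of the subpopulations varied by gene. Egr1 was highest in stromal cells at 11.00, ahead of basal CD49f-high cells at 10.51, whose samples overlapped the stromal ones, and basal CD49f-low cells at 10.47, and lowest in luminal Sca1-negative cells at 9.91. Gem was highest in stromal cells at 10.58, followed by basal CD49f-low, total epithelial and basal CD49f-high cells at 10.35, 10.11 and 9.76, and a clear step separated these from luminal Sca1-negative and Sca1-positive cells at 8.86 and 8.71. Dusp1 ran from 10.49 in stromal cells to 9.64 in luminal Sca1-negative cells. For Fos, Fosb, Jun, Junb, Egr1 and Dusp1 luminal Sca1-negative cells were the lowest of the 6. Atf3 was lowest in stromal cells at 10.75 and highest in basal CD49f-high cells at 11.22, level with luminal Sca1-positive cells at 11.21. Apart from the step named for Gem, neighbouring subpopulations overlapped in their sample ranges for every gene.

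**Figure D4:**
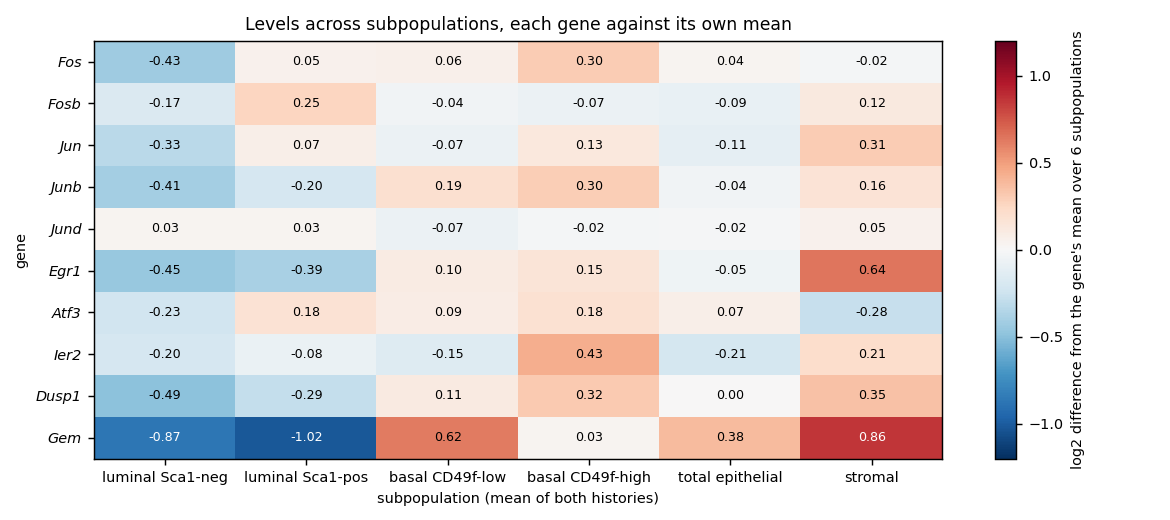
Level of each gene (rows) in each subpopulation (columns), averaged over both histories, as the log2 difference from that gene's own mean over the 6 subpopulations, printed in each cell. Gem spans the widest range, from -1.02 in luminal Sca1-positive to 0.86 in stromal cells, and Jund stays within -0.07 and 0.05.

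The 10 genes varied together from sample to sample. Over the 35 samples the 45 pairwise correlations ran from 0.0339 to 0.915 with a median of 0.61, and after each group mean was subtracted 44 of 45 were still positive, with a median of 0.52. Junb and Dusp1 had the highest correlation over samples, 0.915, and Fos and Fosb the highest of the deviations, 0.913. Jund and Gem were the least alike. These correlations share the arrays and are descriptions. Among other genes, the mean of the 10 was followed most closely over the 35 samples by Snord14e (r = 0.89), Tppp3 (0.83), Btg2 (0.80), an early-induced antiproliferative gene, Oat (0.79), Camk2n1 (0.79), Polg2 (0.78), Arhgef25 (0.77), the heat shock chaperone Dnajb1 (0.77), Ppp1r15a (0.76), a stress-induced phosphatase subunit, and Hspa1a (0.76). Within groups, Txnip (0.89), Prelp (0.87) and the early response nuclear receptor Nr4a1 (0.86) came first. Gem was most like the co-chaperone gene Bag3 (r = 0.96), and Egr1 most like Dmd (0.87).

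A list of 24 other early response genes was measured in full. In the mean over the 4 sorted epithelial subpopulations 6 rose, against 2.72% of all genes, and none fell, with a median of 0.15. The 4 largest rises were those of Gadd45b, a stress-response growth arrest gene, by 0.64 (SE 0.13, limma adjusted p = 0.00145), Ier5 by 0.35, Myc by 0.29 and Csrnp1 by 0.27. Nr4a2 rose by 0.99, Csrnp1 by 0.70 and Myc by 0.60 in luminal Sca1-negative cells, 3 of 24 against 0.662% of all genes. In basal CD49f-low cells the NF-kappaB inhibitor Nfkbia rose by 0.66 and Zfp36, whose protein destabilises early transcripts, by 0.49, 2 of 24 against 0.286%. Gadd45b rose by 1.00, Ccn2 by 0.98, Socs3 by 0.74 and Ier5 by 0.58 in basal CD49f-high cells, 4 of 24 against 4.01%, while the nuclear receptor Nr4a3 fell by 0.82, 1 of 24 against 5.05% of all genes called lower. Luminal Sca1-positive cells had 1 call, Egr2, which fell by 0.76, against 0.181% of all genes called lower. Total epithelial and stromal cells had none.

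Genes that act beside or upstream of the group were not called higher with parity. None of 14 measured AP-1 and ATF relatives was called higher in any of the 6 subpopulations, and their mean effect over the sorted epithelium had a median of -0.03. Over all genes, calls higher ranged from 0.166% in total epithelial to 4.01% in basal CD49f-high cells among the epithelial gates. A list of 14 with none is near that share. Basal CD49f-high cells had 2 falls, as Fosl1 fell by 1.18 (SE 0.23, limma adjusted p = 0.00137) and Atf6 fell by 0.85, against 5.05% of all genes called lower in that subpopulation. Among 14 measured upstream kinases and factors, 3 fell in parous basal CD49f-high cells, against the same 5.05%. Crem, which encodes cAMP-responsive activators and repressors, fell by 0.79, Elk4, a serum response factor partner, fell by 0.57, and the kinase Braf fell by 0.52. Crem also fell in the mean over the sorted epithelium, by 0.44 (SE 0.09, limma adjusted p = 0.00139), and Elk4 fell by 0.22, 2 of 14 against 3.49% of all genes called lower. Of 14 other MAP kinase phosphatases and Sprouty genes none was called higher with parity in any subpopulation, again near the share over all genes. Dusp10 fell by 1.11, Dusp16 fell by 0.97, Dusp7 fell by 0.83 and Dusp14 fell by 0.54 in basal CD49f-high cells, 4 of 14 against 5.05%. Dusp6, the phosphatase specific for ERK, fell by 1.09 in stromal cells (SE 0.20, limma adjusted p = 0.00395), 1 of 14 against 0.492% of all genes called lower.

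Heat shock chaperones and cell type markers moved beside the group. Of 11 measured chaperones 5 rose in the mean over the sorted epithelium, against 2.72% of all genes, led by Hspa1a by 0.78 (SE 0.11, limma adjusted p = 2.2e-05), Dnajb1 by 0.44, Hspb1 by 0.29 and Bag3 by 0.18, and Hspe1 fell by 0.17, against 3.49% of all genes called lower. Basal CD49f-high cells had larger rises, where Hspa1a rose by 1.43, Hspb1 by 0.84, Dnajb1 by 0.84 and Hspa8 by 0.22, 4 of 11 against 4.01% of all genes. The mean level of the 11 was 10.94 in parous and 10.64 in nulliparous basal CD49f-high cells, 10.79 in parous and 10.55 in nulliparous luminal Sca1-negative cells, and 10.40 in both histories of luminal Sca1-positive cells. In stromal cells it was 10.99 in parous and 11.16 in nulliparous samples. Of 10 basal markers 5 were higher in the mean over the sorted epithelium, by 0.29 to 0.60, against 2.72% of all genes. In basal CD49f-high cells the mean level of the basal markers was 10.52 in parous and 9.96 in nulliparous samples. Pan-luminal markers there averaged 8.63 in parous and 8.23 in nulliparous samples, and fibroblast markers 6.74 and 7.05. In parous luminal Sca1-negative cells Krt5, the basal keratin, was higher by 1.30, Cnn1 by 1.21 and Myh11 by 0.93, 3 of 10 against 0.662%. Krt14 fell by 2.00 and Krt5 fell by 1.85 in parous stromal cells, 2 of 10 against 0.492%. Of 10 fibroblast markers Dcn fell by 0.88 and Fbln1 fell by 0.45 in the mean over the sorted epithelium, against 3.49%. The part of the chaperones and of these cell types in the parity effects on the early response genes was not tested.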

How the data were processed

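Per probe set the authors deposited 1 log2 value for each sample, made with the affy software, per the submitters' processing notes. No version, background correction or normalization is stated there, and the log2 scale is read from the value range, 1.74 to 13.28. Of 34760 probe sets, 21640 had 1 gene symbol in the platform annotation, 1321 several and 11799 none. Where a gene had several (954 genes), its probe set of highest mean level was taken, leaving 19937 genes. Column medians were 5.81 to 5.92.

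One linear model with a mean for each of the 12 groups was fitted to all 35 samples (lmFit, then eBayes with trend = TRUE) in limma 3.58.1 under R 4.3.3. Benjamini-Hochberg adjustment ran over the whole gene table, and the fit was tested on simulated data. The simulated samples were independent, with the same spread of a gene in all groups. That test therefore does not cover the larger spread in basal CD49f-high cells or a likeness of same-numbered samples. Replicates are biological replicates per the labels, each pooled from several mice, and groups follow the labels.

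All 10 genes were tested in every comparison. Those called are named, while some that were not called are not printed, mainly in the comparisons of levels. From each other list up to 4 called genes per direction were named, largest difference first. The genes nearest to the mean profile were named by Pearson r. The members and the lists were chosen with earlier results of these data known. No coordinates were taken from the array, and promoters came from RefSeq (GRCm38.p6). Alternatives were eBayes without trend, array weights, quantile normalization, a filter on dim genes, the mean of all probe sets, blocks by replicate number, each subpopulation alone, and single samples or all samples of a number left out.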

Additional observations from a re-analysis of the deposited data

Results flagged for a closer look

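These results are listed because a direct limma test found that the parity effect of a gene differed between subpopulations. Between the basal gates, the effect in CD49f-high minus that in CD49f-low cells was 1.45 for Ier2 (SE 0.24, limma adjusted p = 0.00105) and -0.65 for Gem (SE 0.18, limma adjusted p = 0.0490). Ier2 was higher in both parous CD49f-high samples than in all 3 nulliparous ones, and Gem was higher in all 3 parous CD49f-low samples than in all 3 nulliparous ones. The effect in stromal cells minus the mean over the sorted epithelium was -0.89 for Dusp1 (SE 0.16, limma adjusted p = 0.00327). Over all 6 subpopulations the moderated F was 8.33 for Fos, 5.67 for Egr1, 13.6 for Ier2, 8.97 for Dusp1 and 8.49 for Gem, with limma adjusted p of 0.00659, 0.0406, 0.000331, 0.00443 and 0.00603 in that order. The spread was larger in basal CD49f-high cells, so these SE and adjusted p can be too small where those cells enter. The cause of these differences was not tested.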

How the results depend on the processing

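Of 42 called differences of single genes, recomputed 2048 times in all, 1911 values kept the call, 137 lost it and 0 reversed. Counts of the 10 genes called are given here, and a number means all samples of one history with that replicate number, left out together. Calls over all genes moved between settings too, from 0 to 2342 in basal CD49f-high cells and from 537 to 1829 in the mean over the sorted epithelium. A changed count therefore need not be particular to the 10 genes. Parity effects: luminal Sca1-negative cells had 2, and 6 with array weights or without nulliparous number 1, 1 with quantile normalization, without any 1 parous number or on their own samples, and 1 to 3 with 1 sample left out. Luminal Sca1-positive cells had 0, and 1 with array weights of either kind or without nulliparous number 1, and 0 to 1 with 1 sample left out. Basal CD49f-low cells had 1, and 2 with array weights, without dim genes or with history and number as a random block, 4 without nulliparous number 1, and 1 to 2 with 1 sample left out. Basal CD49f-high cells had 7, 0 on their own samples, and 5 to 8 with 1 sample left out. Total epithelial cells had 1, 2 with array weights of either kind, 4 without nulliparous number 1, 0 without parous number 1 or 2, and 0 to 2 with 1 sample left out, 0 being without nulliparous replicate 2 of that subpopulation. The mean over the sorted epithelium had 10, 6 without nulliparous number 3, 3 without basal CD49f-high cells, and 9 to 10 with 1 sample left out. CD49f-high minus CD49f-low effects had 2, 4 without dim genes, with history and number as a random block or without nulliparous number 1, 1 with array weights of either kind, quantile normalization or without any 1 parous number, and 1 to 4 with 1 sample left out. Stromal minus epithelial effects had 1, 4 with array weights or that random block, 2 without dim genes or with weights per subpopulation, 6 without nulliparous number 1, and 1 to 5 with 1 sample left out. The F test of parity effects had 5, 2 without parous number 2, 1 without parous number 3, and 4 to 7 with 1 sample left out. Luminal Sca1-positive minus Sca1-negative levels had 4, 2 with quantile normalization or without parous number 1 or 2, 1 without parous number 3, and 2 to 4 with 1 sample left out. Stromal parity effects and the other comparisons stayed within 1.5 times in every setting run. Causes were not tested. Weights per subpopulation, the parous numbers left out, the stromal contrast and the mean over 3 subpopulations were added after seeing the data.

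With the replicate number as a block, the counts were 4 in luminal Sca1-negative, 1 in luminal Sca1-positive and 2 in basal CD49f-low cells, 4 for CD49f-high minus CD49f-low and 5 for stromal minus epithelial effects. A block within each history gave 4 and 5 for the last 2. Between subpopulations of one history, the deviations of same-numbered samples correlated at 0.0116 to 0.338, above 0.1 in 28 of 45 nulliparous and 15 of 40 parous pairs. Differently numbered samples reached at most 0.0716, above 0.1 in 0 of 90 and 0 of 80 pairs, and 35 of 35 samples correlated best, on average, with their own number. Deviations cancel out within a group, so likeness of same-numbered samples pushes the correlations of differently numbered ones down. The low values of differently numbered samples are therefore not separate evidence. The same-numbered correlations are a hint from the data that a number marks something shared. Parous and nulliparous samples of one subpopulation correlated at a median of 0.0684 with the same number and -0.0363 with different numbers. The labels do not say what a number marks, and the fit without the block was kept, so it treats samples of a number as independent. With history and number as a random block, at a shared correlation of 0.0703, the mean over the sorted epithelium lost only the call of Jund.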
